A study of Drosophila melanogaster with 3 samples.

Results

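The Enhancer of split complex, E(spl)-C, is a run of small intronless genes on Drosophila chromosome arm 3R. The 10 genes described here were named by their annotation and comprised 7 basic helix-loop-helix (HLH) genes and 3 Bearded family (BFM) genes, of 13945 protein-coding genes in all. Together they spanned 43.388 kb, chr3R:25997621-26041008 in dm6. Every reproducible summit within this span extended by 5 kb on each side, chr3R:25992621-26046008, was taken, which gave 15 of the 7248 reproducible summits, or 0.207%.

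The measurement was chromatin immunoprecipitation with sequencing (ChIP-seq) of CG10669 in whole prepupae, the stage at which a fly larva enters metamorphosis. All 3 biological replicates came from one transgenic line that stably expresses CG10669 with GFP at its C-terminus, with both sexes pooled, and there was no second genotype, stage or treatment. The fragments were sonicated to between 200 and 800 bp, and the tissue was not dissected, so a summit may come from any part of the animal. The antibody field names CG10669 itself, so recovery of the tagged and of the untagged protein cannot be told apart; the labels do not say how many animals entered a replicate, and read depth was unknown. The sample descriptions speak of an input control and give an age of days that does not match a prepupa. The files are peak lists of an immunoprecipitation, and the age was not used.

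The genes of the complex are classical targets of Notch signalling. When Delta or Serrate on a neighbouring cell binds Notch, the receptor's intracellular part enters the nucleus, joins the DNA-binding protein Su(H) and switches on the complex. The HLH proteins then repress transcription together with Groucho, above all that of the proneural genes achaete and scute, and the Bearded family proteins bind the ubiquitin ligase Neuralized and restrain Delta endocytosis. In imaginal discs these steps set which cells become sensory organ precursors.

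Sequences at 7 of the summits are shown first, to set the AT-rich letters found at most of them beside the Su(H) letters found at 1. The windows below are 200 bp long, centred on the summit and written along the plus strand of dm6, as read from the RefSeq Release 6 genome. They are the summits upstream of mdelta (chr3R:25997186-25997385), malpha (chr3R:26008981-26009180), m2 (chr3R:26017883-26018082), m3 (chr3R:26021273-26021472) and m7 (chr3R:26036578-26036777), and the one in an intron of gro (chr3R:26042399-26042598). Capitals mark, on either strand, the 5 7-mers most in excess at the 7233 reproducible summits outside the complex over windows 500 bp to either side. The first of them, AAAATAT, was in 26.9% of those summit windows against 12.8% of their flanks. The second, AAAAATA, was in 30.1% against 16.6%, and the third, AAAAAAT, in 29.2% against 15.95%. The fourth, TTTAAAA, was in 22.2% against 9.51%, and the fifth, TTAAAAA, in 24.0% against 11.6%.
E(spl)mdelta-HLH upstream: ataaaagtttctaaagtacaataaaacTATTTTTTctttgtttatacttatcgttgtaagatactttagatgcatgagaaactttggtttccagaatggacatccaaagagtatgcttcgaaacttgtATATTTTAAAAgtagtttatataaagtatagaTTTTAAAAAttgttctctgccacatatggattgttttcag
E(spl)malpha-BFM upstream: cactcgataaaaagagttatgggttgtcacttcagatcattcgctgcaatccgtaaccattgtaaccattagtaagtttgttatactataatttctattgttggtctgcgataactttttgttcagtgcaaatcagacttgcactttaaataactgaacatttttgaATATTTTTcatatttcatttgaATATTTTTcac
E(spl)m2-BFM upstream: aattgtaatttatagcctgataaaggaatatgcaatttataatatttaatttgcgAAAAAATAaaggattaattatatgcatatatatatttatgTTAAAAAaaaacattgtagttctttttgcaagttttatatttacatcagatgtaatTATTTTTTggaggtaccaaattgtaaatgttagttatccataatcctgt
E(spl)m3-HLH upstream: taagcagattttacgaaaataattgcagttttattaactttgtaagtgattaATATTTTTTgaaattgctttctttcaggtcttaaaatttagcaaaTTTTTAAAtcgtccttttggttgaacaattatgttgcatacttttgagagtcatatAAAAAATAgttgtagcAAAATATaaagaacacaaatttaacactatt
E(spl)m7-HLH upstream: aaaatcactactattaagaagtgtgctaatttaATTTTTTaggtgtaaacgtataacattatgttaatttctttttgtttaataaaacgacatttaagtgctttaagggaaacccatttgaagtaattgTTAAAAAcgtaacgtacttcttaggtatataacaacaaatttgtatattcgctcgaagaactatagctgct
gro intron: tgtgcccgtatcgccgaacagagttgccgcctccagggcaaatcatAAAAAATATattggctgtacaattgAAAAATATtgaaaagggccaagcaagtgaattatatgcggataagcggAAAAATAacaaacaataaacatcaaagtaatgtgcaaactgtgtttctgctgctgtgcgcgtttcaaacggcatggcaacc

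The summit upstream of mbeta (chr3R:26006150-26006349) is shown beside them as the one summit window of the complex with the strict Su(H) letters GTGGGAA, in capitals here. It held none of the 5 7-mers.
E(spl)mbeta-HLH upstream: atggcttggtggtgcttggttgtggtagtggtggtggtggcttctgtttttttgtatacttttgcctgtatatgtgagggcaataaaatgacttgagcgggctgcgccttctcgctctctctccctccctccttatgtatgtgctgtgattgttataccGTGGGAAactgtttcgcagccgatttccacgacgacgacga

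The complex was dense in summits. The extended interval held 2.81 reproducible summits per 10 kb, against 0.501 on the rest of 3R (1603 summits) and 0.541 over all chromosomes, a ratio of 5.61 to the rest of 3R. In lists of the 7248 candidates with the highest signal in each replicate, the interval held 15, 13 and 14 summits in replicates 1, 2 and 3. The ratios to the rest of 3R in these lists were 5.75, 4.67 and 5.21, a mean of 5.21 ± 0.537 (SD, n = 3). Of 2504 tiles of the same length laid along the chromosomes, 19 (0.759%) held at least as many summits as the interval, the median tile held 2, and 756 held none. The complex was therefore among the dense stretches of the list without being at its maximum, which was 20 summits in a tile. Before the reproducibility step the interval held 35 pooled candidates, 6.56 per 10 kb against 2.12 on the rest of 3R, a ratio of 3.09.

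The summits were not evenly spread. The median gap between neighbouring summits was 1588.5 bp over 14 gaps, against 6006 bp on 3R. The largest gap of 15103 bp ran from the m3 promoter to the m7 promoter and covered m4, m5 and m6. Of the 1617 gaps on 3R, 30.4% were longer than this one. By position, 12 of the 15 summits were intergenic, 2 intronic (in CG43116 and gro) and 1 in an exon of the non-coding gene lncRNA:CR45038, and none fell in a coding exon or an untranslated region of a protein-coding gene. For 11 of the 15, the summit lay upstream of the start of the nearest member, at a median distance of 1356 bp over all 15. Neither the matching shares over all reproducible summits nor the intergenic share of the interval is given here, so these counts have no background.

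**Figure D1:**
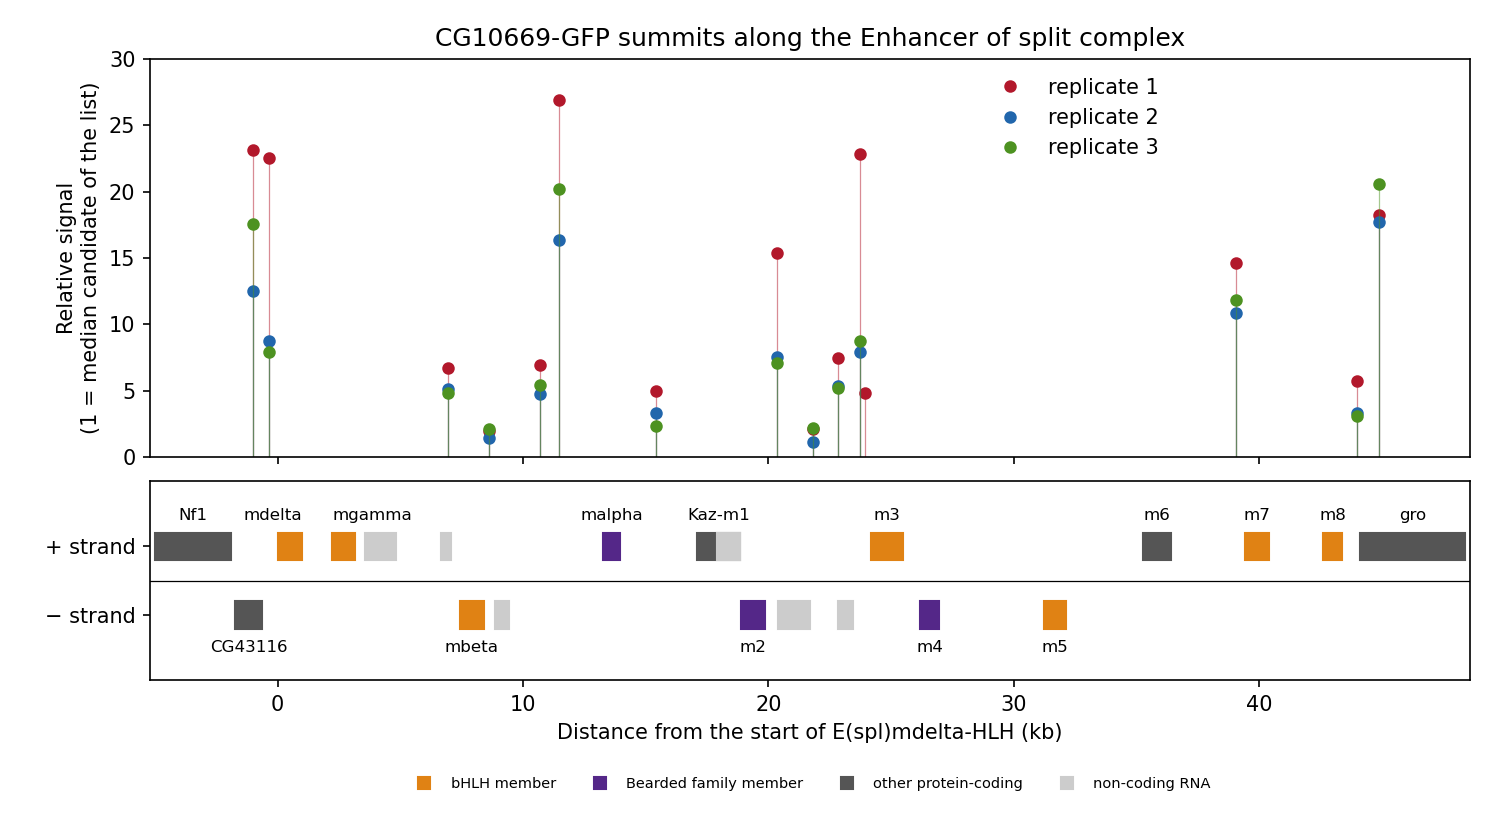
Relative signal of each reproducible summit in the 3 replicates (upper panel) above the genes on each strand (lower panel), against distance in kb from the start of E(spl)mdelta-HLH. Summits lie at both ends and in the middle of the complex, and a gap of 15.103 kb covers m4, m5 and m6; in the m3 summit pair the right-hand summit is drawn for replicate 1 alone, and Nf1 and gro are clipped at the plot's ends.

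Signals were compared as relative signal, the deposited signal of a summit divided by the median signal of the 30000 candidates of the same list, so that 1 is a median candidate. Of the 15 summits, 7 (46.7%) stood among the first 1000 of the pooled ranking, where 13.8% of all reproducible summits stand by construction. Recovery means a summit of a replicate's list within 200 bp. In all 3 lists 13 of the 15 were recovered, against 66.7% of all reproducible peaks. The replicates held 14, 13 and 15 of them. In replicates 2 and 3 a single summit counts for both m3 summits. With each replicate summit counted once, a count chosen after seeing the data, 12 were recovered in all 3 lists. All reproducible peaks rest on the pooled reads of these replicates and on one shared control file, so recovery is in part built in. Every interval summit carried the same deposited −log10 q of 4.24, the maximum of the list, which gave no order among them.

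Among the HLH genes, which encode the repressors, mdelta, mbeta, m3 and m7 had a reproducible summit within 500 bp of their start. That made 4 of the 7 HLH genes and 4 of the 10 members, against 15.4% of all protein-coding genes. Within 1000 bp it was 5 of 10, with m2 added, against 19.1% of all genes. In the single replicate lists the count within 500 bp was 3, 3 and 4 of 10. At the level of pooled candidates of any strength, 6 of the 10 members had one within 500 bp, against 30.5% of genes.

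E(spl)mdelta-HLH (FBgn0002734, plus strand, chr3R:25997621-25998633) opens the complex. Its summit at 25997286 lay 335 bp upstream, in the space it shares with the start of the divergent gene CG43116, which was 290 bp away. The summit ranked 511 and had relative signals of 22.5, 8.76 and 7.96 in replicates 1, 2 and 3. Replicate 1 stood far above the others here, 2.69 times their mean, and the mean was 13.1 ± 8.17 (SD, n = 3) with it and 8.36 without it. A second summit at 25996602, 1019 bp upstream of mdelta, lay in an intron of CG43116, 394 bp downstream of that gene's start. It ranked 253, with 23.1, 12.5 and 17.6 in the replicates and a mean of 17.7 ± 5.30 (SD, n = 3). All 3 replicates put this pair of summits among their first 1314 candidates.

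E(spl)mgamma-HLH (FBgn0002735, chr3R:25999851-26000761), the next gene on the same strand, had no reproducible summit of its own. The nearest was the mdelta summit 2565 bp upstream. Its nearest pooled candidate lay 995 bp downstream of the start, inside the following spacer, and ranked 12848 with a relative signal of 1.19.

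E(spl)mbeta-HLH (FBgn0002733, minus strand, chr3R:26005046-26006023) had 3 summits within 3 kb of its start, none of them strong. The promoter summit at 26006250, 227 bp upstream, ranked 6944, near the end of the list of 7248. Its relative signals were 1.95, 1.46 and 2.11, a mean of 1.84 ± 0.338 (SD, n = 3), and replicate 3 alone held it in the shortened list. The summit at 26008311, 2288 bp upstream of mbeta and 1238 bp upstream of lncRNA:CR45039, gave 6.92, 4.74 and 5.48 in the replicates. The one at 26004552, 1471 bp downstream of the start in the exon of lncRNA:CR45038, gave 6.71, 5.17 and 4.81. Both were recovered in all 3 lists, so the distal pair stood above the promoter summit of mbeta in every replicate.

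E(spl)m3-HLH (FBgn0002609, plus strand, chr3R:26021823-26023127) had a single peak of 494 bp, the widest in the interval, with 2 summits. The stronger, at 26021373, lay 450 bp upstream of m3, in the space it shares with the divergent lncRNA:CR43644, whose start was nearer at 297 bp. This summit ranked 524. Its relative signals of 22.9, 7.91 and 8.79 again showed replicate 1 high, at 2.74 times the mean of the other replicates. The mean was 13.2 ± 8.38 (SD, n = 3), or 8.35 without replicate 1. The weaker summit at 26021575, 248 bp upstream, ranked 3824. It had a summit of its own in replicate 1 alone, at 4.82, and in replicates 2 and 3 the nearest summits were those of its stronger neighbour, 156 and 138 bp away. No mean is given for it. A further summit at 26020467, 1356 bp upstream, lay beside lncRNA:CR43644 and gave 7.44, 5.34 and 5.18.

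E(spl)m7-HLH (FBgn0002633, plus strand, chr3R:26037038-26038019) stands to the right of the large gap. Its summit at 26036678, 360 bp upstream, ranked 574. The relative signals were 14.6, 10.8 and 11.8, a mean of 12.4 ± 1.97 (SD, n = 3). The 3 replicates were closer together here than at mdelta and m3, and replicate 1 exceeded the mean of the others 1.29 times.

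The HLH genes m5 and m8, like mgamma, lacked a promoter summit. E(spl)m5-HLH (FBgn0002631, minus strand, chr3R:26028854-26029735) lay inside the gap, 6943 bp from the nearest reproducible summit. A pooled candidate 87 bp upstream of its start ranked 21543 with a relative signal of 0.655, below the median candidate. E(spl)m8-HLH (FBgn0000591, plus strand, chr3R:26040240-26041008), the last gene of the span, had its nearest summit 1385 bp downstream of the start, past its end and in front of gro.

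Among the 3 Bearded family members, whose products restrain Neuralized, none had a reproducible summit within 500 bp. E(spl)m2-BFM (FBgn0002592, minus strand, chr3R:26016514-26017470) missed that limit narrowly. Its summit at 26017983, 513 bp upstream, ranked 869 with 15.4, 7.53 and 7.09 in the replicates and a mean of 10.01 ± 4.68 (SD, n = 3). Replicate 1 was 2.11 times the mean of the others. A weak summit at 26019462, 1992 bp upstream of m2 and 153 bp upstream of lncRNA:CR43643, ranked 7241, the last of the interval, with 2.11, 1.17 and 2.21. It was recovered in replicates 1 and 3.

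E(spl)malpha-BFM (FBgn0002732, plus strand, chr3R:26010893-26011568) had the summit with the best pooled rank and highest mean of the interval, but away from its promoter. The summit at 26009081 lay 1812 bp upstream and ranked 145, with 26.9, 16.4 and 20.2 in the replicates and a mean of 21.2 ± 5.33 (SD, n = 3). Its lead came from replicate 1, since the gro intron summit described below was higher in replicates 2 and 3, at 17.7 and 20.5. A pooled candidate 73 bp upstream of the malpha start ranked 10478, with relative signals of 1.08, 1.22 and 1.51 at the best candidates within 500 bp in the replicates. The summit 2140 bp downstream of the malpha start, at 26013033 and 1688 bp upstream of Kaz-m1, gave 4.97, 3.31 and 2.37. E(spl)m4-BFM (FBgn0002629, minus strand, chr3R:26023821-26024579) stood farthest from any candidate. Its nearest pooled candidate lay 2220 bp downstream of the start and ranked 26529, and its nearest reproducible summit was the weaker m3 one, 3004 bp downstream.

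**Figure D2:**
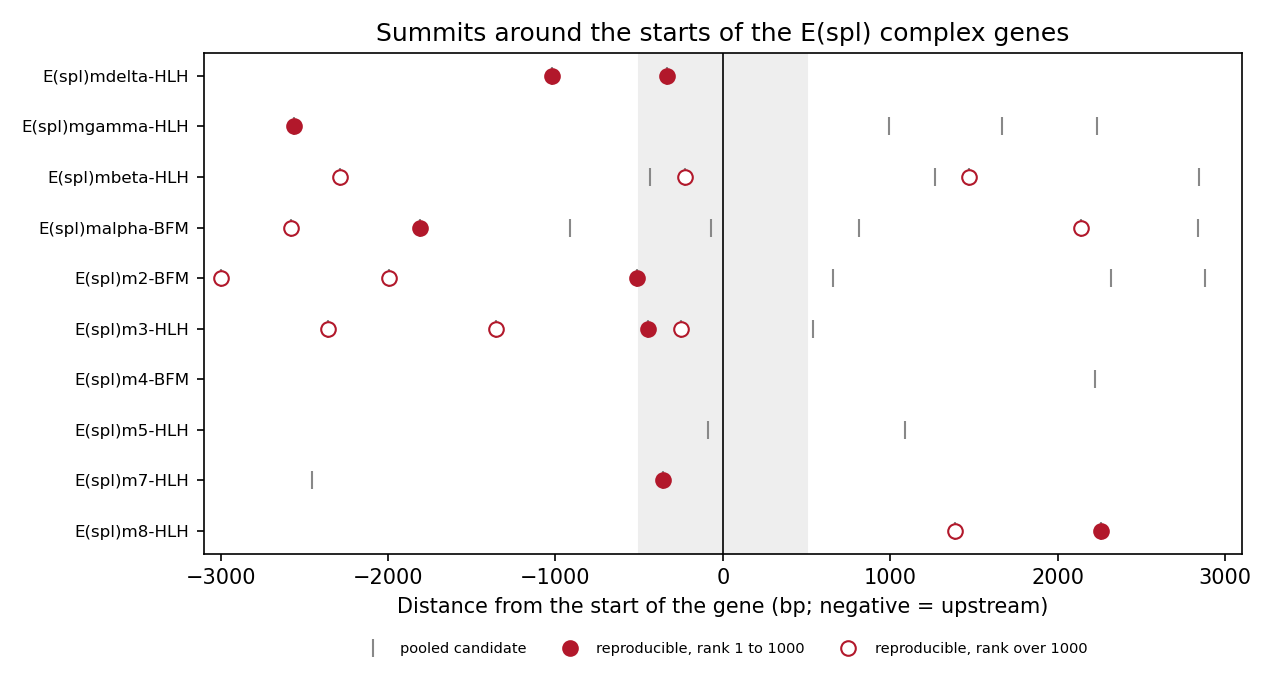
Position of reproducible summits (circles) and of all pooled candidates (ticks) within 3 kb of the start of each member, in bp along the gene's own direction; the grey band is 500 bp to either side. Filled circles, ranks 1 to 1000, lie inside the band at mdelta, m3 and m7 and just outside it, at 513 bp, for m2, while m4 and m5 show candidates without a reproducible summit.

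The neighbouring genes groucho, Kaz-m1 and E(spl)m6-BFM, which are not among the 10 members, were read beside them. The gene groucho (gro, FBgn0001139), whose product is the corepressor that the HLH proteins recruit, had 2 summits near its starts. The one at 26042499 lay in a gro intron, 142 bp upstream of a further annotated start, and ranked 231. Its relative signals of 18.2, 17.7 and 20.5, a mean of 18.8 ± 1.51 (SD, n = 3), had a smaller SD for their mean than any other summit of the interval. The summit at 26041625, 111 bp upstream of the first gro start, gave 5.71, 3.30 and 3.10, a mean of 4.04 ± 1.45 (SD, n = 3). Kaz-m1, which encodes a Kazal-type protease inhibitor and was formerly called E(spl)m1, and the Bearded family gene E(spl)m6-BFM had pooled candidates but no reproducible summit within 500 bp. For E(spl)m6-BFM the nearest reproducible summit was 3767 bp away.

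In order of mean relative signal, the malpha upstream summit led, followed by the gro intron, the CG43116 intron, m3, mdelta, m7 and m2. Below these stood the distal m3 summit, the upstream and the downstream mbeta summits, the gro promoter, the summit before Kaz-m1, the mbeta promoter and the distal m2 summit. The malpha upstream summit was above the gro intron in replicate 1 alone. Most steps in this order were within the replicate spread: the ranges of neighbours overlapped everywhere except between the summit before Kaz-m1 and the mbeta promoter. The first of these was higher in 3 of 3 replicates. The CG43116 intron over m3, and the downstream mbeta summit over the gro promoter, were also higher in 3 of 3, with overlapping ranges. So was m2 over the distal m3 summit, which are neighbours here because the weaker m3 summit is left out of this order. Of these pairs, the difference in means exceeded the larger SD only in those ending at the mbeta promoter and at the gro promoter. No test was made between summits: over 3 replicates the smallest p of a two-sided exact sign permutation of the paired differences is 0.25. The median of the 15 means was 7.17, against 3.67 over the 6782 reproducible peaks found in all candidate lists. That middle value was the one of the weaker m3 summit, which shares replicate summits with its neighbour. The median was 7.998 when this summit was left out.

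**Figure D3:**
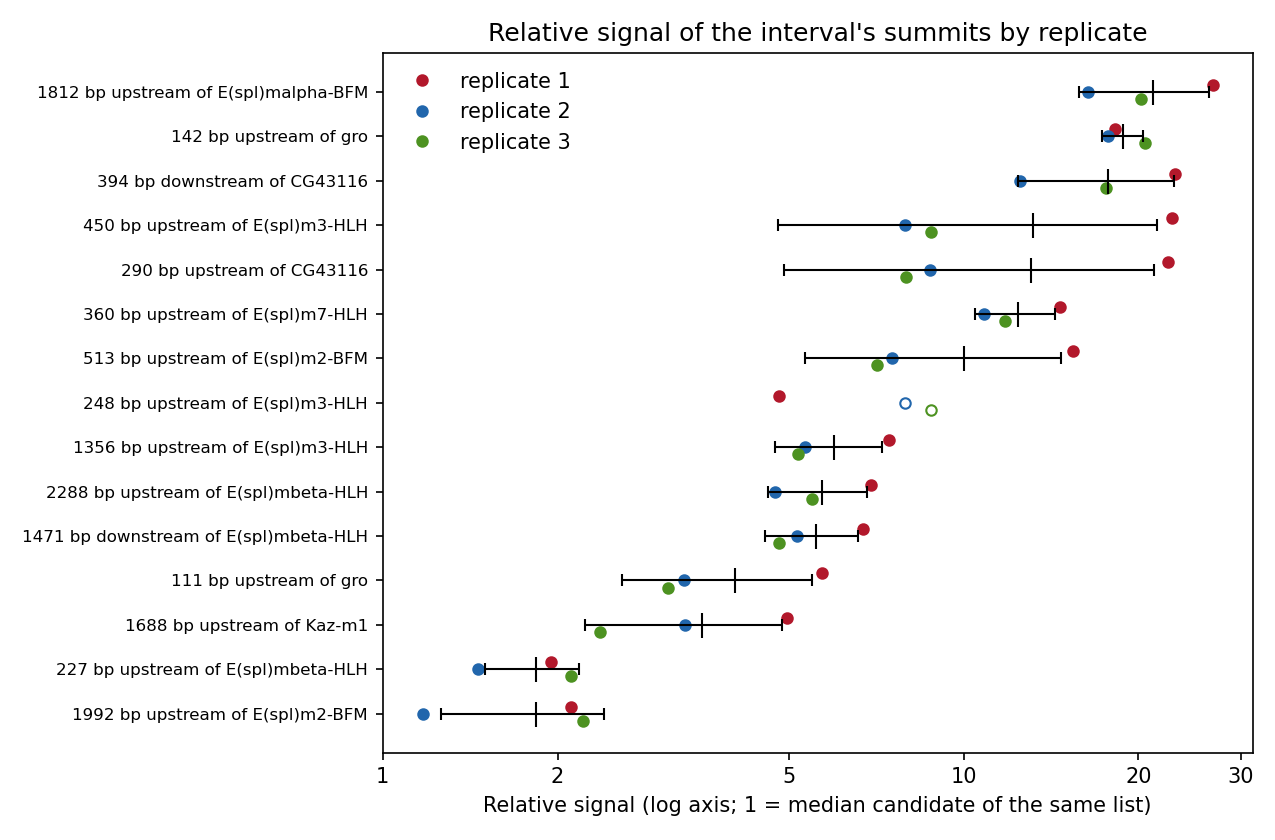
Relative signal (log axis, 1 = median candidate of the same list) of the 15 summits in each replicate, ordered by mean and named by distance from the nearest protein-coding start; ticks with bars are means ± SD (n = 3), and open points are replicate summits that belong to the neighbouring m3 summit. Replicate 1 lies far to the right at m3, at the CG43116 to mdelta spacer and at m2, while the 3 replicates nearly coincide at the gro intron.

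Replicate 1 tended to be high over the interval. It exceeded the mean of replicates 2 and 3 at 13 of the 15 summits, with a median ratio of 1.41, while over all 6782 peaks this held for 65.9% with a median of 1.18. Ratios above 2 were found at 3 of the 15 summits (mdelta, m3 and m2) and at 11.0% of all peaks. Whether the library or the animals of replicate 1 differed was not tested.

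The sequence at the summits was poorer in GC than its surroundings. Over 200 bp windows the interval's summits had a GC content of 34.4% ± 9.71 (SD over 15 summits), close to the 35.3% of all reproducible summits. Windows 500 bp to either side had 47.9% in the interval and 43.2% over all peaks, and the interval as a whole had 44.3%, against 42.6% for 3R. The summits of the shortened replicate lists in the interval gave 31.5%, 34.0% and 33.7%, a mean of 33.1% ± 1.38 (SD, n = 3). Single summits ranged widely. The m2 summit had 21.0% GC and the m3 summit 23.5%, whereas the weak mbeta promoter summit had 49.5% and the one farther upstream of mbeta 46.0%.

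**Figure D4:**
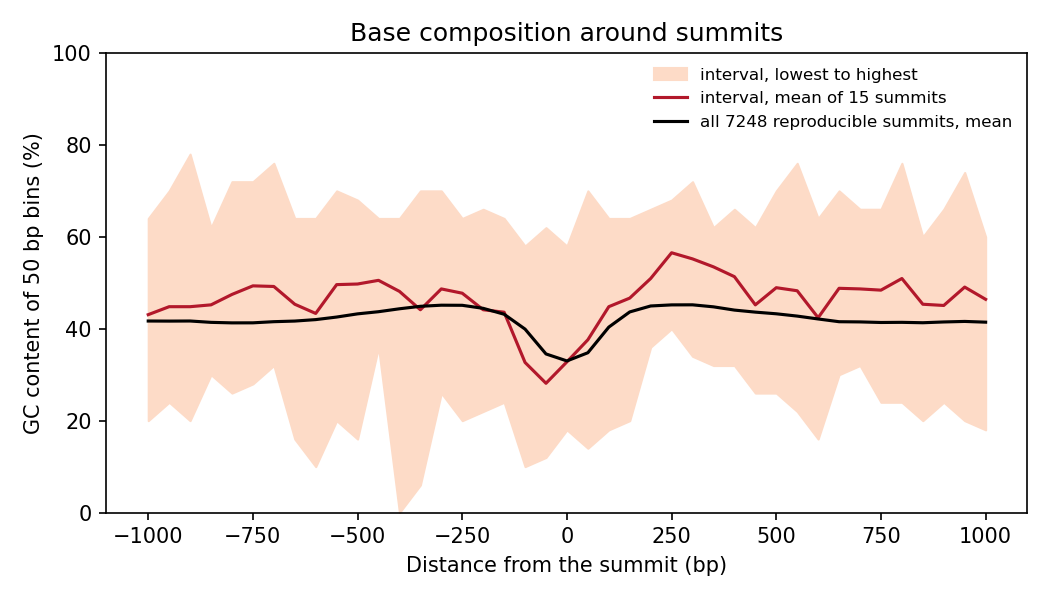
GC content in bins of 50 bp against distance from the summit in bp, as the mean of the 15 interval summits (red, with the lowest to highest value shaded) and the mean of all 7248 reproducible summits (black). Both lines dip at the summit, the interval line to 28.1% in the bin 50 bp before it and the line of all summits to 33.0% at the summit itself.

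At least 1 of the 5 AT-rich 7-mers printed above was found in 13 of the 15 summit windows, against 63.4% of all summit windows. In the windows 500 bp away they were present in 11 of 30 for the interval and 37.6% for all peaks. Promoters, from 250 bp before to 50 bp after the start, held at least 1 at 4 of 10 members, against 64.5% of 13944 promoters. Summit windows of the same 300 bp length held at least 1 in 14 of 15, against 72.3% of all. These 7-mers overlap one another, and the windows printed for mdelta and m3 held all 5 of them. The mbeta and gro promoter summits held none.

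Su(H) is the factor through which Notch activates these genes, and its letters were sought on both strands as GTGGGAA and as the looser GTGNGAA, which contains it. The strict form was in 1 of 15 summit windows, that of mbeta, against 2.24% of all summit windows and 6 of 30 flanking windows of the interval. The looser form was in 2, those of mbeta and lncRNA:CR45038, against 9.34%. The interval itself was rich in the strict form, with 34 matches or 6.37 per 10 kb, against 1.26 on 3R. One of the 34 lay within 100 bp of a summit, while windows of that reach covered 5.62% of the interval. Within 500 bp lay 11, and the share of the interval covered at that reach was not computed. The median distance from a match to the nearest summit was 1117.5 bp. Upstream of the members, 1000 bp held 4 matches at malpha, 3 each at mgamma, m5 and m7, 2 each at m4 and m8, 1 each at mdelta, mbeta and m2, and none at m3.

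In promoters, from 250 bp before to 50 bp after the start, GTGGGAA was present at m4, m5 and m8, against 3.69% of 13944 promoters. None of these is among the 4 members with a promoter summit, but this split depends on the 250 bp limit. At mbeta the nearest match was 289 bp from the start, inside its summit window. At m7, mdelta and m3 the nearest was 641, 771 and 1044 bp away. Of the members without a promoter summit, mgamma (266 bp), malpha (337 bp) and m2 (962 bp) also had theirs beyond the limit. The other letters sought had these counts. The GAGA factor letters GAGAG were in 7 of 10 member promoters, including all 4 with a summit, against 30.2% of promoters, and in 5 of 15 summit windows against 23.5%. The core CGATA, sought for the DNA-binding factors BEAF and DREF, was in none of the 10 promoters, against 46.9% of promoters. CGATA was in 5 of 15 summit windows against 21.0%. The longer TATCGATA, which contains it, was in none of the windows against 0.938%. With windows of 300 bp, GAGAG was in 6 of 15, against 36.5%, and CGATA in 5 of 15, against 29.8%.

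Letters bound by the HLH repressors themselves were also sought. The class C site was sought as CACGNG, whose matches include CACGTG. It was in 2 of 15 summit windows, against 8.17%, and in 5 of 10 member promoters, against 19.1% of promoters. Of the 2 windows, the distal m3 summit matched as CACGTG and the upstream mbeta summit as CACGCG. The N-box CACNAG was in none of the windows, against 17.5%, and in 5 of 10 promoters, against 29.8%. With windows of 300 bp, the class C site was in 4 of 15, against 14.3%, and the N-box in 3 of 15, against 27.6%. Of the proneural E-boxes, GCAGGTG was in none of the windows, against 1.12%, and GCAGNTG, whose matches include it, in 1, against 8.61%. In windows of 300 bp these stood the other way, with 2 of 15 against 2.10% and 3 of 15 against 15.6%. In the member promoters GCAGGTG was present at 2 of 10, against 2.73% of promoters, and GCAGNTG at 3 of 10, against 16.3%. A match is a string of letters and no measured site, and the windows are few.

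Genes of the same families and pathway elsewhere in the genome were read against the same 15.4% of all genes with a reproducible summit within 500 bp. Of 5 other Hairy/E(spl) type repressor genes (hry, dpn, Hey, cwo and Sidpn), 1 had one. That was hry (hairy), 29 bp downstream of a start, with weak signals of 1.38, 0.933 and 2.84. Of 4 Bearded family genes elsewhere, Brd, Tom, Ocho and BobA, none had one.

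Of 9 proneural genes and partners, 2 had a promoter summit, both of them partners. These were daughterless (da), the shared dimerisation partner of proneural proteins, at 4.18, 1.84 and 1.502, and extramacrochaetae (emc), which sequesters them, at 2.71, 2.38 and 2.41. The genes ac, sc, l(1)sc, ase, ato, amos and cato had none.

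Of 20 Notch pathway genes, 6 had a promoter summit. The strongest was at numb, whose product antagonises Notch in asymmetric divisions, at 18.7, 9.97 and 13.8. The next were aph-1, a subunit of the γ-secretase that cleaves Notch, at 14.3, 8.87 and 7.50, and neur, which encodes Neuralized, at 10.8, 6.10 and 5.17. Lower values were found at mam, the Mastermind coactivator, with a mean of 4.03 ± 0.543 (SD, n = 3), and at N itself, with 2.67 ± 0.963 (SD, n = 3). The gene kuz, a Notch protease, had 2.37 ± 1.16 (SD, n = 3). The genes of the ligands, Delta and Ser, and Su(H) had no summit within 500 bp. The means at numb, aph-1 and neur, 14.1, 10.2 and 7.36, lay within the range of the complex's own summits. Within 1000 bp of a start the count was 10 of 20 Notch pathway genes, 2 of 9 proneural genes and partners, 2 of 5 Hairy/E(spl) type genes and none of 4 Bearded family genes, against 19.1% of all genes.

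The other gene complexes of the same circuitry had fewer summits per length than E(spl)-C. The achaete-scute complex, 4 proneural genes on X over 103 kb, held 10 summits, 0.970 per 10 kb against 0.628 for X, the best at rank 1688. In the replicate lists it held 9, 7 and 7. The Bearded cluster, 4 genes on 3L over 40.5 kb, held 1 summit, 0.247 per 10 kb against 0.583 for 3L, at rank 4839, and 1, 1 and 0 in the replicate lists. Both spans were taken with the same 5 kb on each side as E(spl)-C.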

How the data were processed

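Per the file headers, the authors made a candidate list for each replicate from its alignments and one shared control file, a pooled list from all alignments, and a reproducible list by irreproducible discovery rate thresholding, all in dm6. Each list's deposited signal came from the authors' peak caller and has its own scale, and the deposited −log10 q is capped at the list's maximum. Which aligner, caller and threshold the authors used is not given in the sources used here, and depth was unknown.

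From these files, signals were divided by the median candidate signal of their list, and each replicate list was shortened to its 7248 highest signals. Genes and starts came from Ensembl release 115 on 6 chromosomes, sequence from RefSeq Release 6, whose chromosome lengths hold every peak. Python 3.11.15, numpy 2.4.6, pandas 2.3.3 and matplotlib 3.10.9 were used, and the counting steps were tested on simulated data. The text names all members, every interval summit with its nearest genes, and listed family genes with a promoter summit. BobB and BobC were not analysed here. The members and lists were chosen with earlier results of these data known, and with 1 group of 3 replicates values are given with their spread and no test was made. Alternatives varied windows, lists, scaling and replicates.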

Additional observations from a re-analysis of the deposited data

How the results depend on the processing

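The interval's density relative to the rest of 3R was 5.61; it was 6.33 with 2 kb on each side, 4.73 with 10 kb (15 summits in each), 9.10 in the 3624 peaks of highest signal and 4.67 in the replicate 2 list. Members with a promoter summit fell from 4 to 2 with a window of 250 bp and numbered 5 with 1000 bp. They numbered 3 without any one replicate. Summits recovered in all replicates used numbered 13 to 14 when a replicate was left out, and 12 when each replicate summit counted once, an alternative chosen after seeing the data, as were a start window slightly above 500 bp, which gave 5 members, and the removal of the weaker m3 summit. The median relative signal was 7.17; it was 1.97 when scaled to the shortened list, 6.39 to 7.31 without a replicate and 7.998 without the weaker m3 summit. GC content was 34.4%; it was 31.7% over 100 bp and 36.7% over 300 bp windows, and 33.5% without the 2 lowest-ranked summits, also chosen after seeing the data. Without replicate 1 the mean relative signal was 8.36 in place of 13.1 at mdelta and 8.35 in place of 13.2 at the stronger m3 summit. With depth unknown, weak summits near the end of the list, such as the mbeta promoter summit and the distal m2 summit, are the least certain. Absence of a summit says only that none passed the authors' threshold.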
